A study of Mus musculus with 21 samples.

Results

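Sebum is the lipid mixture that sebaceous glands of the skin release when their cells, the sebocytes, fill with lipid droplets and burst. The 10 genes described here encode enzymes of its synthesis and a nuclear receptor that drives it: Pparg, Fasn, Scd1, Scd2, Scd3, Elovl3, Awat1, Awat2, Dgat2 and Soat1. They were taken by symbol from the 49315 gene identifiers of the count files, and all 10 were found. The series asks what the transcription factors of the genes Tfap2a (AP-2α) and Tfap2b (AP-2β) do in the epidermis, and it holds 21 samples of mouse epidermal sheets, sequenced as total RNA without ribosomal RNA, in 7 groups of 3. In 13 files every gene was listed at 0, so 8 libraries could be used. They held between 11318181 and 17746284 counts.

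The comparison set 3 libraries of genotype K14CreTfap2afl/flTfap2bfl/fl, aged 6 months, against 3 strain-specific controls of that age, given in the labels as WT and here called controls. The former are called the knockout-labelled libraries. K14Cre places Cre under the promoter of keratin 14, so floxed alleles are deleted in basal keratinocytes and the cells that descend from them, among them the hair follicle and its sebaceous gland. The other 2 libraries were K14CreTfap2bfl/fl at 3 weeks, and no other group of that age had counts. The labels do not say whether the controls carried floxed alleles or Cre, nor whether replicates were separate mice, so p-values measure only the spread between these samples. Tfap2a stood at 165, 140.3 and 210.1 counts per 1000000 counts (CPM) in controls 1 to 3, against 229, 213 and 309 CPM in the knockout-labelled libraries. Tfap2b stood at 57.3, 86.6 and 71 CPM and at 53.8, 57.2 and 56.9 CPM. Neither passed the test (edgeR adjusted p = 0.118 and 0.111), though Tfap2a did, as higher, without control 3 (0.72 in log2 fold change, edgeR adjusted p = 0.016). A count per gene takes in exons outside a deleted part and so does not check the labels, and the libraries are therefore named by their label throughout.

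Some libraries stood apart. Controls 1 and 2 had counts in 35794 and 39362 genes, beside 23454 to 25537 elsewhere. They also had 1.61 and 3.19 counts per exonic kb over 1420 odorant and vomeronasal receptor genes, which skin is not known to use, beside 0.0971 to 0.195 in the remaining 6 libraries. Of the 3-week libraries, replicate 1 held far more counts of fat cell and dermal genes than replicate 2, and it is described apart.

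As background, fatty acid synthase builds palmitate, elongases lengthen it and stearoyl-CoA desaturases place a double bond in the chain. The products are joined to glycerol, to fatty alcohols or to sterols, giving the triglycerides, wax esters and sterol esters of sebum. PPARγ drives sebocyte differentiation as it drives that of fat cells. Mice without Scd1 have shrunken sebaceous glands and sparse hair. The same enzymes also serve the lipid barrier of the epidermis, and Fasn, Scd1 and Dgat2 are abundant in fat tissue.

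The desaturases were lower in the knockout-labelled libraries, and with them Dgat2, an enzyme that completes triglycerides. Scd1, Scd2, Scd3 and Dgat2 fell, by 2.09, 1.41, 2.65 and 0.67 on the log2 scale. No member rose: 0 were higher with edgeR, DESeq2 or limma-voom, nor at an unadjusted edgeR p under 0.05. Fasn, Elovl3, Awat2 and Soat1 did not pass the test, and Pparg and Awat1 were too sparse to be tested. The test was edgeR's quasi-likelihood test over 17755 genes with Benjamini-Hochberg adjustment and a threshold of 0.05. Of all genes tested, 14.9% passed, 8.59% as lower and 6.26% as higher, beside 4 of the 8 members tested. The median log2 fold change was -1.06 over these 8 members and -0.04 over all genes tested. The members were chosen with earlier results of these data known, so these shares and medians are no test of the list. Scd1, Scd2 and Scd3 are relatives in 1 gene cluster. The calls of Scd3 and Dgat2 were each lost in 4 of 6 fits with 1 library left out. Whole tissue was sequenced, so fewer cells of a type and less RNA per cell cannot be told apart.

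**Figure D1:**
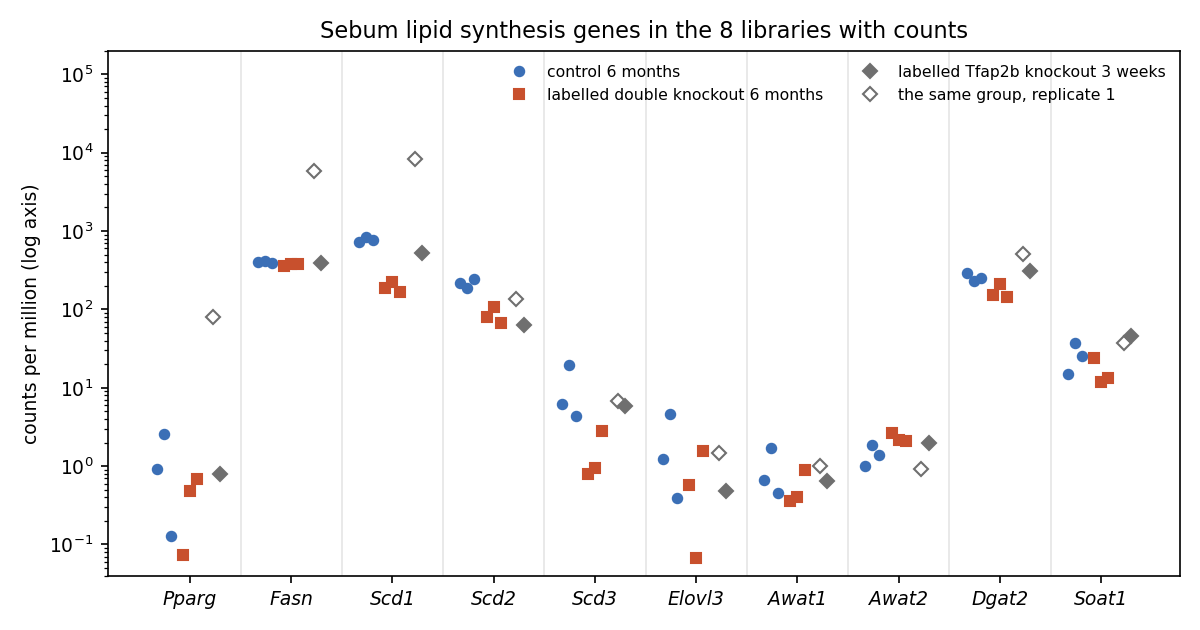
CPM of the 10 genes on a log axis, 1 point per library, for 3 controls and 3 knockout-labelled libraries at 6 months and the 2 libraries labelled Tfap2b knockout at 3 weeks. For Scd1 the controls sit between 718 and 848 CPM and the knockout-labelled libraries between 168 and 224 CPM, while 1 of the 3-week libraries stands far above all others in Pparg, Fasn and Scd1.

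Pparg (ENSMUSG00000000440, chr6:115360951-115490399, plus strand, GRCm38) was close to the limit of detection at 6 months. The controls held 11, 29 and 2 counts, or 0.914, 2.56 and 0.13 CPM. The knockout-labelled libraries held 1, 7 and 12 counts, or 0.0724, 0.477 and 0.676 CPM. The groups overlapped, and control 2 was highest. In that control the receptor-gene background, scaled to the exon length of Pparg, came to 9.42 counts. Without the filter on low counts the log2 fold change was -1.19 (SE 1.15, adjusted p = 0.359 by edgeR), and against control 3 alone it was 1.04.

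Fasn (ENSMUSG00000025153, chr11:120805846-120824547, minus strand), the synthase that makes palmitate, had counts that were high and even. The controls stood at 402, 415 and 388 CPM and the knockout-labelled libraries at 353, 383 and 378 CPM. Every knockout-labelled library was below every control, though by little. The log2 fold change was -0.19 (SE 0.12) and did not pass (edgeR adjusted p = 0.312). Across all genes tested, 38.7% had groups that did not overlap, 16.3% with the knockout-labelled libraries below and 22.5% above, beside 5 members below and 1 above among the 8 tested.

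Scd1 (ENSMUSG00000037071, chr19:44394451-44407709, minus strand) is the main desaturase of skin and carried the most counts of any member in the controls. It stood at 718, 848 and 775 CPM in controls 1 to 3, against 186, 224 and 168 CPM in the knockout-labelled libraries. The groups lay far apart, with means of 780.2 ± 65.4 and 193 ± 28.1 CPM (SD, n = 3 each). The fall was 4.26-fold, a log2 fold change of -2.09 (SE 0.15, adjusted p = 0.000133 by edgeR). It was past the threshold whichever library was left out. Among 17 alternative analyses it was lost only when the 2 libraries of 3 weeks, which differ from each other by far in this gene, entered the same fit (-2.05, SE 0.86, edgeR adjusted p = 0.168).

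Scd2 (ENSMUSG00000025203, chr19:44293676-44306864, plus strand), a desaturase with a wider pattern of expression, stood at 217, 187 and 242 CPM in the controls. The knockout-labelled libraries stood at 80.8, 108 and 67.2 CPM. No values overlapped between the groups. The fall was 2.66-fold (-1.41 in log2 fold change, SE 0.18, adjusted p = 0.0019 by edgeR), and it passed in all 17 alternative analyses.

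Scd3 (ENSMUSG00000025202, chr19:44203288-44244016, plus strand), a desaturase of sebocytes, was measured at far lower counts. Controls held 74, 221 and 67 counts (6.15, 19.5 and 4.36 CPM) and knockout-labelled libraries 11, 14 and 50 counts (0.797, 0.954 and 2.82 CPM). The groups did not overlap, but control 2 was well above the other two and the third knockout-labelled library well above its group. The log2 fold change was -2.65 (SE 0.7, adjusted p = 0.0333 by edgeR). The call was lost without control 1 (-2.9, edgeR adjusted p = 0.0695), without control 2 (-1.75, edgeR adjusted p = 0.101) and without replicate 1 (-2.32) or replicate 2 (-2.38) of the knockout-labelled libraries. Limma-voom gave -2.53 with an adjusted p of 0.0773.

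**Figure D2:**
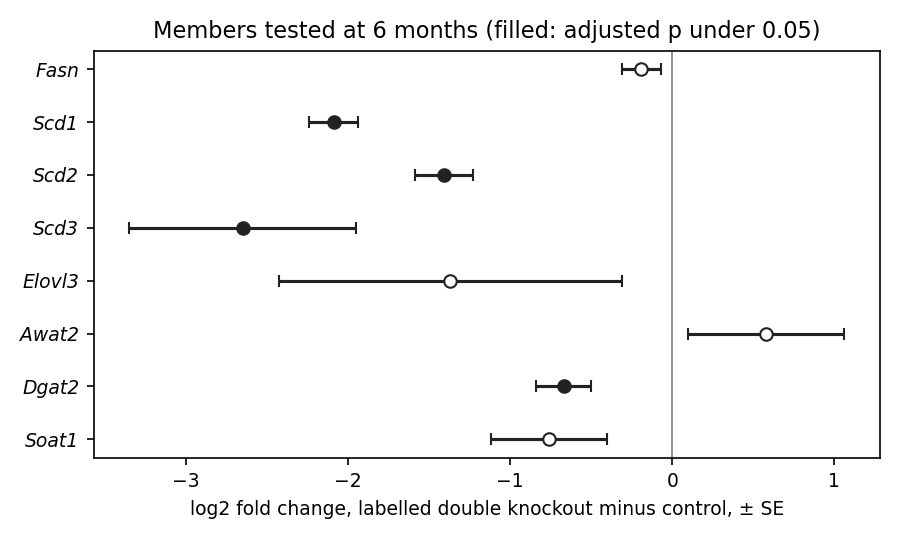
Log2 fold change of each member tested, labelled double knockout minus control at 6 months, with its standard error as bars and filled points for an edgeR adjusted p under 0.05. The filled points are Scd1 (-2.09), Scd2 (-1.41), Scd3 (-2.65) and Dgat2 (-0.67), and the widest bar belongs to Elovl3 (SE 1.06).

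The Scd genes are close relatives, which matters for how far their counts can be kept apart. Coding sequences of 1 transcript per gene from GENCODE M21 were identical at 91.5% of aligned bases between Scd1 and Scd3, 90.4% between Scd1 and Scd2, and 84.7% between Scd1 and Scd4, a further desaturase gene of the cluster. A 60-base stretch shared by all 4 coding sequences, at bases 586 to 645 from the start codon in Scd1, is shown first. At 60 bases it is shorter than the read length of 150 bases, so a read of full length reaches beyond it.
Scd1, Scd2, Scd3 and Scd4: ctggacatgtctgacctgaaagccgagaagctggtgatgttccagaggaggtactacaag
The next 4 lines show the stretch in which the other genes differed most from Scd1, at coding bases 295 to 354 of Scd1. Capitals mark bases that differ from Scd1, 10 in Scd2, 18 in Scd3 and 17 in Scd4.
Scd1: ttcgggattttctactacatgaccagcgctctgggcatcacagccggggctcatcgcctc
Scd2: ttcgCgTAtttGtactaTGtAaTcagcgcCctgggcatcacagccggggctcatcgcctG
Scd3: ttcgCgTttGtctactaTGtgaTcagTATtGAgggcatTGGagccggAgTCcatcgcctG
Scd4: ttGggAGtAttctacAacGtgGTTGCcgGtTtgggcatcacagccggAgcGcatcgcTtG

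Most of each transcript was distinct at the read length of 150 bases. Of 4683 windows of 150 bases in the Scd1 transcript, 36 (0.769%) also occurred in another Scd transcript, as did 36 of 3340 (1.08%) in Scd3, and 0 in Scd2 and Scd4. Reads with mismatches could still be placed wrongly, so the values of Scd3, which has far fewer counts than Scd1, carry that uncertainty. When the counts of Scd1, Scd2, Scd3 and Scd4 were summed into 1 entry, they came to 944, 1059.6 and 1023 CPM in the controls against 268, 333 and 239 CPM in the knockout-labelled libraries. That sum fell by 1.93 on the log2 scale (SE 0.15, adjusted p = 0.00021 by edgeR).

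Scd1 to Scd4 lie within 204 kb of chromosome 19, at chr19:44203288-44407709. Scd4 stood at 3.16, 4.86 and 1.56 CPM in controls 1 to 3, against 0.29, 0.477 and 0.169 CPM in the knockout-labelled libraries. It held 38, 55 and 24 counts in controls 1 to 3, against 4, 7 and 3 in the knockout-labelled libraries. It thus entered the test through the controls, and with at least 10 counts asked of every library it was left out. The log2 fold change was -2.95 (SE 0.68, adjusted p = 0.0118 by edgeR), and -2 against control 3 alone. All 4 desaturase genes of the cluster were thus called lower, Scd3 and Scd4 on few counts. The call of Scd4 was lost without control 2 or without replicate 1 of the knockout-labelled libraries. Of 11 other protein-coding genes within 200 kb of the cluster, 7 were tested and 0 passed with edgeR, DESeq2 or limma-voom, and 1 had an unadjusted edgeR p under 0.05. Their log2 fold changes ran from -0.36 for Erlin1, which is that gene, to 0.24 for Ndufb8. A difference between the Scd genes and their neighbours was not tested.

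**Figure D3:**
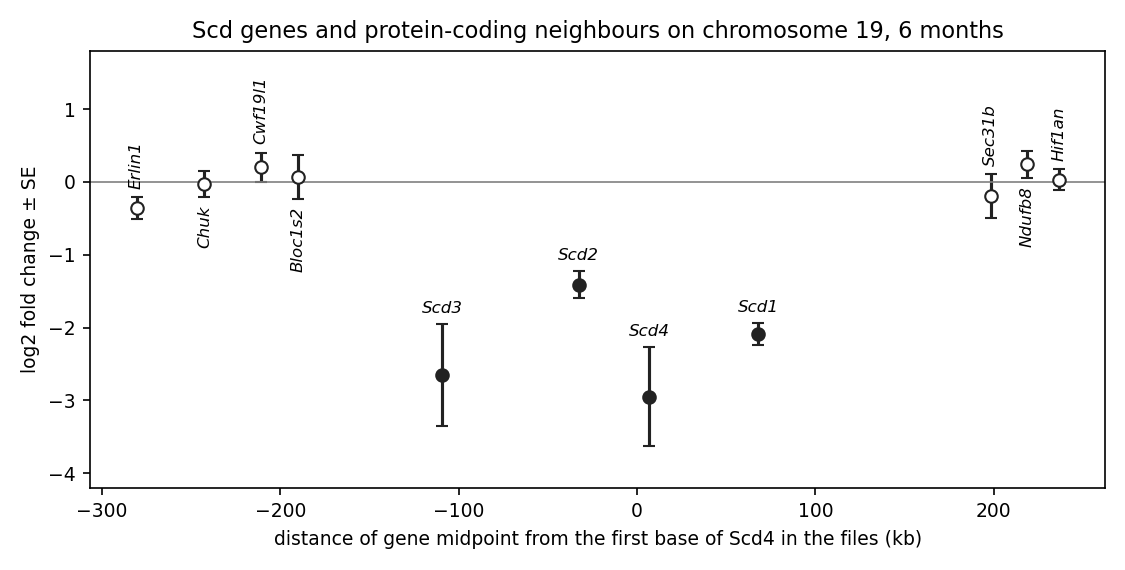
Log2 fold change with its standard error, labelled double knockout minus control at 6 months, against distance in kb from the first base of Scd4, for the Scd genes (filled) and the protein-coding neighbours that were tested (open). The 4 Scd genes lie between -2.95 and -1.41, the neighbours between -0.36 and 0.24.

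RefSeq promoter sequences of GRCm38.p6 were at hand for 6 of the 10 genes, Pparg, Fasn, Scd3, Awat1, Awat2 and Soat1. Those of Scd3 and Fasn are shown because the former fell and the latter, the enzyme that makes the fatty acid it acts on, did not pass the test. Each is the 250 bases before the annotated start, for Scd3 chr19:44203038-44203287 on the plus strand and for Fasn chr11:120824548-120824797 on the minus strand. Capitals mark matches, on either strand, to an AP-2 motif (GCCNNNGGC), an SREBP motif (TCACNCCAC) or an NF-Y motif (CCAAT).
Scd3 promoter: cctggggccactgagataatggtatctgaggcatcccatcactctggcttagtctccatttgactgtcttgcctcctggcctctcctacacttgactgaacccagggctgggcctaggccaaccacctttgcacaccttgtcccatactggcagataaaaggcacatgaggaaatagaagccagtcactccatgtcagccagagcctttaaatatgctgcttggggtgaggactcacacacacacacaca
Fasn promoter: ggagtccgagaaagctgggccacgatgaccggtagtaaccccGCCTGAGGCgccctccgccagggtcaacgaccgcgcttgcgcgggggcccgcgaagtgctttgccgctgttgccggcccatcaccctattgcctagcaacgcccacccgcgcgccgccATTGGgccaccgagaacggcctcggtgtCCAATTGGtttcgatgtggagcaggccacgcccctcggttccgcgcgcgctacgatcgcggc

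The Fasn window held 1 AP-2 match and 3 NF-Y matches, of which 2 overlap each other. The Scd3 window held none of these, nor a match to the core element of nuclear receptors such as PPARγ (AGGTCA). Among the windows not shown, the first of Pparg held 3 AP-2 matches and its others 0. Those of Awat1, Awat2 and Soat1, which were not called either, held 0 AP-2 matches. Among 32851 promoter windows of the same length in the RefSeq table, 13.7% held the AP-2 motif, 1.05% the SREBP motif, 33.8% the NF-Y motif and 14% the core element. A match describes letters in its window and not binding.

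Elovl3 (ENSMUSG00000038754, chr19:46131897-46135307, plus strand), which lengthens saturated fatty acids in sebocytes, was near the floor. Controls held 15, 52 and 6 counts and the knockout-labelled libraries 8, 1 and 28 counts, or 0.391 to 4.59 and 0.0682 to 1.58 CPM. The groups overlapped and the log2 fold change was -1.37 (SE 1.06, adjusted p = 0.355 by edgeR). That value rested on control 2: without it the log2 fold change was -0.15, and against control 3 alone it was 0.72.

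Awat1 and Awat2, which join fatty acids to fatty alcohols as wax esters, lie within 176 kb of the X chromosome. Awat1 (ENSMUSG00000015665, chrX:100572251-100578205, plus strand) held 8, 19 and 7 counts in the controls, beside 5, 6 and 16 counts in the knockout-labelled libraries, and was not tested. Its levels of 0.456 to 1.68 and 0.362 to 0.902 CPM overlapped. Awat2 (ENSMUSG00000031220, chrX:100402221-100442717, minus strand) stood at 0.997, 1.86 and 1.37 CPM in the controls against 2.61, 2.18 and 2.08 CPM in the knockout-labelled libraries. Awat2 was the only member tested whose knockout-labelled libraries all lay above the controls, but the counts were 12 to 37 per library. The log2 fold change of 0.58 (SE 0.48) did not pass (edgeR adjusted p = 0.396).

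Dgat2 (ENSMUSG00000030747, chr7:99153658-99182719, minus strand) adds the last fatty acid of a triglyceride and is also needed for the skin barrier. It stood at 292, 231 and 254 CPM in the controls against 154, 213 and 146 CPM in the knockout-labelled libraries. The groups did not overlap, although the highest knockout-labelled library came within 1 SD of the lowest control. The fall was 1.6-fold (-0.67 in log2 fold change, SE 0.17, adjusted p = 0.03 by edgeR). The call was lost without control 1 (-0.57) or control 2 (-0.75) and without replicate 1 (-0.55) or replicate 3 (-0.54) of the knockout-labelled libraries, with edgeR adjusted p from 0.0548 to 0.15. Its sister enzyme Dgat1 stood at 19 ± 3.65 and 20.1 ± 4.14 CPM (SD, n = 3 each), with an edgeR log2 fold change of 0 and adjusted p = 1. Dgat1 was picked for this comparison after its values were seen.

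Soat1 (ENSMUSG00000026600, chr1:156424525-156474331, minus strand), which makes cholesterol esters, stood at 15.1, 37.5 and 25.7 CPM in the controls. The knockout-labelled libraries stood at 23.7, 11.7 and 13.3 CPM. The groups overlapped, since control 1 lay below 1 library of the other group. The log2 fold change was -0.76 (SE 0.36, adjusted p = 0.174 by edgeR).

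**Figure D4:**
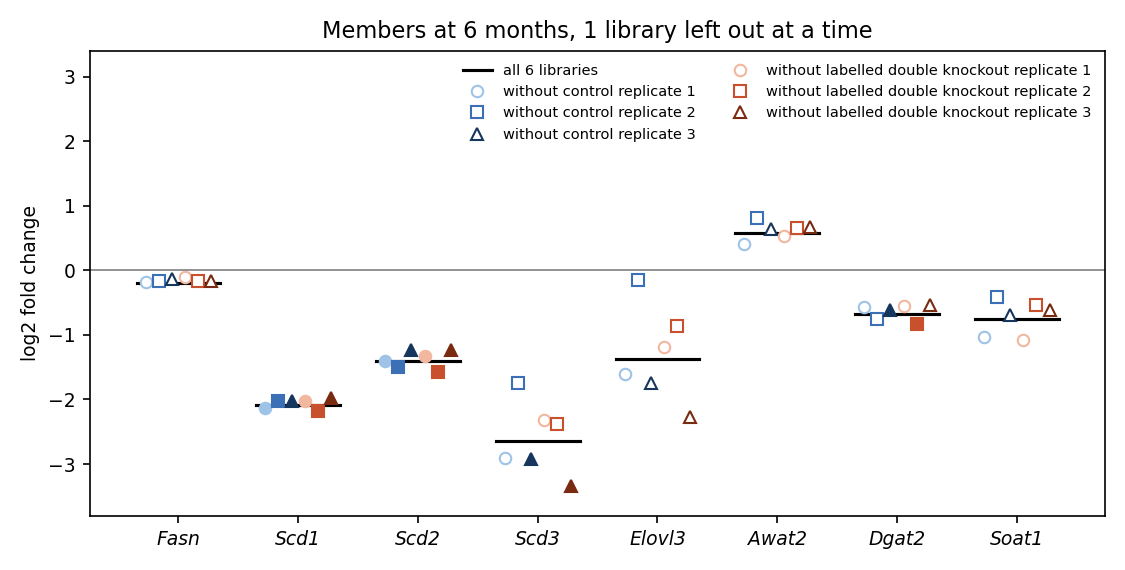
Log2 fold change of each member tested at 6 months with all 6 libraries (bar) and with 1 library left out (points, by library, filled where the edgeR adjusted p was under 0.05). Scd1 and Scd2 stay filled throughout, 2 of the 6 points are filled for Scd3 and 2 of the 6 for Dgat2, and Elovl3 moves to -0.15 without control 2.

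Per kilobase of exon and 1000000 counts (RPKM), which allows genes to be set beside each other, the control order was Scd1 at 161 ± 13.5, Dgat2 at 84 ± 9.97, Scd2 at 39.5 ± 5.03 and Fasn at 36.7 ± 1.27 (SD, n = 3). Scd2 and Fasn did not differ beyond their spread. The other members lay far lower, from Scd3 at 2.89 ± 2.39, Soat1 at 2.67 ± 1.14 and Elovl3 at 1.39 ± 1.49 to Pparg at 0.407 ± 0.42 RPKM, and neighbours in that order lay within their spread. In the knockout-labelled libraries Dgat2 came first with 55.4 ± 11.9 RPKM, then Scd1 at 39.9 ± 5.82, Fasn at 33.9 ± 1.47 and Scd2 at 15.6 ± 3.79 RPKM. Dgat2 and Scd1 lay within their spread, as did Scd1 and Fasn. As a share of the counts of all 10 members, Scd1 gave 43.4% to 48.5% in the controls and 21.6% to 23.7% in the knockout-labelled libraries. Fasn gave 22.9% to 24.3% and 40.6% to 48.4%. The 10 members together came to between 1654 and 1749 CPM in the controls, against 781 to 943 CPM in the knockout-labelled libraries.

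The label of these genes was checked against markers of the sebaceous gland. Of 12 such markers 9 were tested, and 1 fell and 0 rose with edgeR, beside 14.9% of all genes tested that passed. At an unadjusted edgeR p under 0.05, and also with DESeq2, 2 were lower and 2 higher. Prdm1, which marks gland progenitors and also works in the upper epidermis, fell from 102 ± 43.5 to 44 ± 7.62 CPM (SD, n = 3 each; -1.29 in log2 fold change, adjusted p = 0.0208 by edgeR). Acsbg1, the most abundant marker, did not pass (0.09 in log2 fold change, adjusted p = 0.737 by edgeR). Krt79, of the gland duct, stood at 98.3, 176 and 133 CPM in controls 1 to 3, against 239, 166 and 307 CPM in the knockout-labelled libraries. Its log2 fold change of 0.73 did not pass (edgeR adjusted p = 0.0889). It did pass in 3 of 17 alternative analyses: with DESeq2 (0.74, adjusted p = 0.0254), without the filter on low counts (0.85, edgeR adjusted p = 0.000157) and without replicate 2 of the knockout-labelled libraries (0.97, edgeR adjusted p = 0.0483). The markers differed widely in level. At 6 months 5 of the 12, Mc5r, Cidea, Plin5, Dgat2l6 and Pnpla5, were at 3 CPM or less in every library. The other 7 were higher, among them Mgst1 at 3.97 to 14.7 CPM and Far2, which makes fatty alcohols, at 7.23 to 41.3 CPM. These were singled out after their values were seen. Scd1, Fasn and Dgat2 were thus measured at 146 CPM or more in sheets where Elovl3, Awat1, Awat2 and 5 of the 12 markers stayed under 5 CPM, and the cells these reads came from cannot be told apart. The summed level of the 12 markers was 515 to 540.3 CPM in the controls against 538 to 633 CPM in the knockout-labelled libraries. Acsbg1 (means of 212 and 238 CPM), Krt79 (136 and 237) and Prdm1 gave most of that sum. Among the rest, which had no edgeR call, only Apoc1 had a higher mean in the knockout-labelled libraries (26.2 and 40.8 CPM). The others had lower means, among them Far2 at 23.1 ± 15.9 and 10.9 ± 4.24 CPM (SD, n = 3 each).

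Some markers of other cells passed the test between the same groups, beside 14.9% of all genes tested. Of 10 adipocyte markers 4 were tested and 0 passed with edgeR, DESeq2 or limma-voom, with 1 lower at an unadjusted edgeR p under 0.05. The sum of the 10 was 29.3 to 54.4 CPM in the controls against 16.8 to 27.2 CPM in the knockout-labelled libraries. Lipe, a lipase not limited to fat, gave most of that sum, and Adipoq, the fat cell hormone, reached at most 0.83 CPM. Of 8 dermal fibroblast markers 4 fell and 1 rose, with sums of 70.8 to 184 and 43.4 to 52.8 CPM. The collagen gene Col3a1 fell by 2.03 on the log2 scale (edgeR adjusted p = 0.0101), while Col6a1 rose by 1.01 (edgeR adjusted p = 0.0179). Of 8 hair follicle stem cell markers 1 fell with edgeR, 3 were lower with DESeq2 and 2 with limma-voom, and 3 at an unadjusted edgeR p under 0.05, with sums of 1133 to 1748 and 536 to 959 CPM. The edgeR call was the stem cell receptor gene Lgr5, which fell by 3.63 on the log2 scale (edgeR adjusted p = 0.00785). Krt15, a bulge keratin, had a log2 fold change of -1.39 (edgeR adjusted p = 0.0513) and was past the threshold in 8 of 17 alternative analyses, 1 of them without replicate 2 of the knockout-labelled libraries (-1.9, edgeR adjusted p = 0.00431). Of 8 epidermal keratinocyte markers 3 rose, the basal keratins Krt14 (1.71) and Krt5 (0.90) and the suprabasal Krt1 (1.05), with edgeR adjusted p = 0.00097, 0.00862 and 0.00811. The other 5 did not pass, among them Krt10, the most abundant (0.04 in log2 fold change, edgeR adjusted p = 0.904). At an unadjusted edgeR p under 0.05, 1 was lower. That gene was Lor (-1.28 in log2 fold change, edgeR adjusted p = 0.131), named because it went the other way. Hair shaft markers (7 tested) and T and Langerhans cell markers (6 tested) gave 0 calls with edgeR, DESeq2 or limma-voom, with 3 of the former and 0 of the latter at an unadjusted edgeR p under 0.05. The part of these cells in the values of the sebum genes was not tested.

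With the receptor-gene background of controls 1 and 2 subtracted, the calls of Scd1, Scd2, Scd3 and Dgat2 all remained. Against control 3 alone, with the spread of the lone control taken from the other group, Scd1 and Scd2 passed and Scd3 (-1.47) and Dgat2 (-0.63) did not.

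Of 18 genes of fatty acid supply and synthesis, all tested, 3 fell and 1 rose, and the median log2 fold change was -0.36. Over all genes tested, 8.59% fell and 6.26% rose with edgeR. Me1, the malic enzyme that makes NADPH for fatty acid synthesis, stood at 231, 202 and 226 CPM in the controls against 66.8, 117 and 66.1 CPM in the knockout-labelled libraries (-1.47 in log2 fold change, SE 0.22, adjusted p = 0.00441 by edgeR). Acss2, which makes acetyl-CoA from acetate, fell by 0.92 (edgeR adjusted p = 0.0353), and the third that fell, the desaturase gene Scd4, is given above. The elongase Elovl7 rose by 0.85, from 76.7, 90.7 and 89 to 172, 157 and 157 CPM (edgeR adjusted p = 0.00392). Acly, which supplies cytosolic acetyl-CoA, and Elovl4, which builds very long chains for the skin barrier, did not pass, with log2 fold changes of -0.17 and -0.45 (edgeR adjusted p = 0.432 and 0.054). Elovl4 was past the threshold, as lower, in 4 of 17 alternative analyses, among them DESeq2 (-0.44, adjusted p = 0.0248) and limma-voom (-0.45, adjusted p = 0.0464).

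Of 22 genes of wax, glyceride and sterol ester assembly 18 were tested, of which 3 fell and 1 rose, with a median log2 fold change of -0.2. The shares over all genes tested were 8.59% lower and 6.26% higher. The acyl-CoA synthetases Acsl3 and Acsl1, which activate fatty acids, fell by 0.97 and 0.51 (edgeR adjusted p = 0.00709 and 0.0413), and Acsl5 did not pass (-0.24). Among the acyltransferases that make phosphatidic acid, Agpat4 fell by 0.81 and Agpat2 rose by 1.37, from 3.98 ± 1.16 to 11 ± 2.06 CPM (SD, n = 3 each), with edgeR adjusted p = 0.0192 and 0.0189.

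Of 16 genes of lipid droplets and fatty acid handling 13 were tested, of which 2 fell and 1 rose, with a median of -0.49. The shares over all genes tested were again 8.59% lower and 6.26% higher. Plin2, a droplet coat protein, fell by 1.04 and Pnpla2, a triglyceride lipase, by 0.82 (edgeR adjusted p = 0.0411 and 0.0153). Fabp5, the fatty acid binding protein of the epidermis, stood at 33.1, 67.9 and 49 CPM in the controls against 195, 179 and 279.8 CPM in the knockout-labelled libraries. It rose by 2.05 on the log2 scale (edgeR adjusted p = 0.003). Pnpla3, another lipase, did not pass (-0.55).

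Of 17 lipogenic transcription factors and nuclear receptors, with their partners, 3 fell and 4 rose, and the median was -0.18. Beside them stand 8.59% lower and 6.26% higher over all genes tested. Insig1, which holds back SREBP processing and is itself an SREBP target, fell by 1.39, and the coactivator gene Ppargc1a fell by 1.91 (edgeR adjusted p = 0.0036 and 0.011). Ppard, the PPAR of keratinocytes, rose by 0.88 (edgeR adjusted p = 0.0133). The PPAR partners Rxra and Rxrb rose by 0.52 and 0.76 and the SREBP escort gene Scap by 0.63, with edgeR adjusted p = 0.0468, 0.0285 and 0.014. Srebf2, the SREBP of sterol synthesis, did not pass (-0.18).

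Of 26 genes of the pathway and marker lists that rose or fell, chosen by the rule for named genes, 10 passed whichever library was left out, among them Col3a1, Elovl7, Fabp5, Insig1, Krt1, Krt14, Krt5, Lgr5 and Me1. The other 16 lost the call in at least 1 of the 6 fits. Acsl3, Col6a1 and Ppard lost it without replicate 1 of the knockout-labelled libraries, and Ppargc1a, Prdm1 and Scap without replicate 1 or replicate 2. The collagen gene Col1a1, which fell by 2.22 on the log2 scale (edgeR adjusted p = 0.0222), lost it without any 1 of the 3 knockout-labelled libraries. Agpat4 and Pnpla2 lost it without control 2 or without replicate 1 or 3 of the knockout-labelled libraries. Acss2, Rxra and Rxrb kept it only without control 3, Agpat2 only without control 1 or 3, Plin2 only without control 3 or replicate 3 of the other group, and Acsl1 in none of these fits.

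The 2 libraries labelled Tfap2b knockout at 3 weeks differed widely from each other and had no control of their age with counts, so they entered no comparison between groups. Fasn stood at 5818 CPM in replicate 1 and 395 CPM in replicate 2, a ratio of 14.7 (95% counting interval 14.3 to 15.2, which covers counting error only). Scd1 stood at 8197 and 524 CPM, a ratio of 15.6 (15.2 to 16). Pparg stood at 80.9 and 0.799 CPM, a ratio of 101 (54.9 to 212). These genes also serve fat cells.

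The other members were closer between those replicates, also those more restricted to sebocytes. Scd3 stood at 6.86 and 5.83 CPM, a ratio of 1.18 (0.853 to 1.63), and Awat1 at a ratio of 1.57 (0.602 to 4.36). Awat2 had a ratio of 0.463 (0.212 to 0.956) and Soat1 of 0.81 (0.716 to 0.916). Scd2, Dgat2 and Elovl3 had ratios of 2.16 (1.98 to 2.35), 1.64 (1.58 to 1.71) and 3.05 (1.17 to 9.34). All 10 adipocyte markers were above their level of replicate 2 in replicate 1, with sums of 4372 and 36.7 CPM, and Lep, Plin1, Retn and Pck1 were at 0 in replicate 2. All 8 dermal fibroblast markers were also above it, with sums of 2925 and 28.2 CPM. Of the 12 sebaceous gland markers 5 were above and 4 below beyond counting error, with sums of 517 and 613 CPM, of which Acsbg1 gave 229 and 337 CPM. Plin5, Cidea and Mgst1 were above by over 10 times, with ratios of 55.5 (15 to 463), 47.3 (20 to 147) and 15.3 (11.8 to 20.1). The part of these cells in the values of Pparg, Fasn and Scd1 was not tested.

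**Figure D5:**
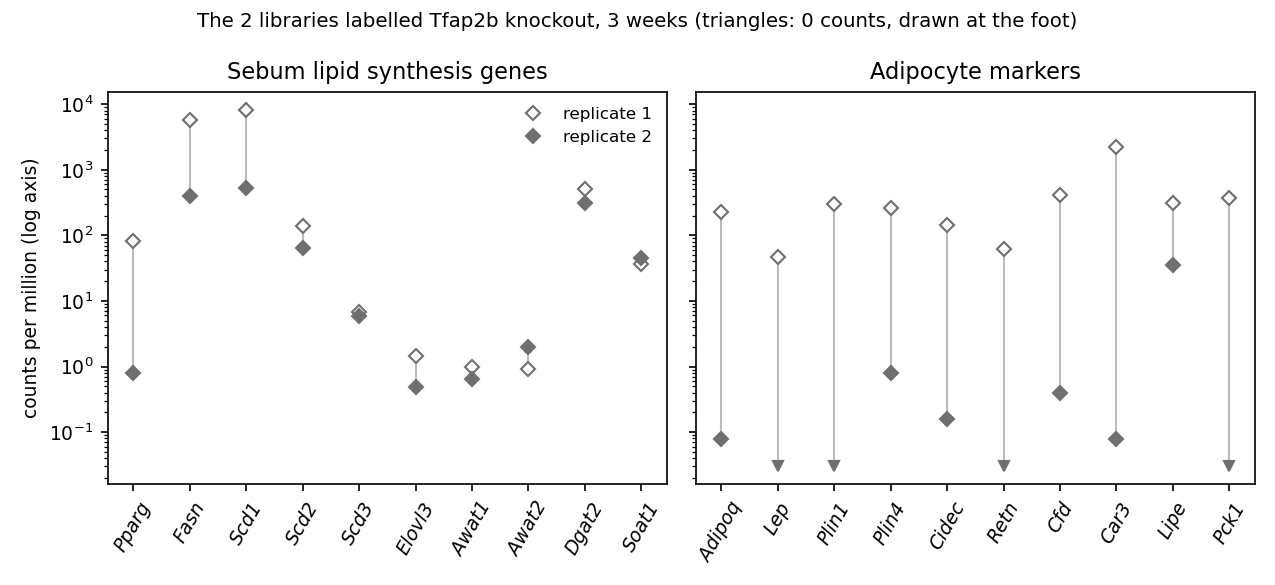
CPM, on a log axis, of the 10 sebum genes (left) and 10 adipocyte markers (right) in both libraries labelled Tfap2b knockout at 3 weeks, with a line joining the replicates and triangles for 0 counts. Replicate 1 is higher in all 10 adipocyte markers and, among the sebum genes, by the most in Pparg, at 80.9 and 0.799 CPM.

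Genes whose pattern over the 8 libraries was most like that of the members were sought among 10341 protein-coding genes with a mean of at least 5 CPM, by Pearson's r of log2(CPM + 1). With the mean standardised level of all 10 members, Tcf7l1 (r = 0.966), Dcn (0.964), Angptl2 (0.96), Fyn (0.959), Mylk (0.957) and Med12l (0.953) came first. All 6 were highest in replicate 1 of the libraries labelled Tfap2b knockout, and without that library 6 other genes came first, led by Serf2 (0.982). With the mean of Scd3, Elovl3, Awat1 and Awat2, Far2 (0.928), Tspan6 (0.909), Gch1 (0.907), Prr3 (0.889), Fa2h (0.887) and Klhl29 (0.886) came first, and all 6 were highest in control 2. Far2 makes the fatty alcohols of wax esters and Fa2h hydroxylates fatty acids. Without that 3-week library, Gch1 (0.948), Tspan6 (0.916) and Far2 (0.912) were still among the first 6. The points share libraries and depth, the groups differ between them, and no test was made.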

How the data were processed

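The files the authors deposited hold raw counts per Ensembl gene, with exon coordinates and length. The submitters' processing notes name Trimmomatic 0.36, STAR 2.5.2b, featureCounts of Subread 1.5.2 and the builds GRCh38 and GRCm38. The use of strand and the handling of multiply mapped reads are not given in the sources used here, so antisense partners and close paralogs can share counts. Of 49315 identifiers, 48970 (99.3%) were in GENCODE M21, 91.4% of these with the same coordinates, and symbols come from it.

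CPM are counts per 1000000 counts of the library. Groups at 6 months were compared in R 4.3.3 with edgeR 4.0.16 (filterByExpr, TMM, glmQLFit with robust estimation, glmQLFTest, prior count of 2) over 17755 genes, with Benjamini-Hochberg adjustment at 0.05. The biological coefficient of variation was 0.311. All reported adjusted p-values are from this test unless another tool is named. Alternatives used DESeq2 1.42.0, limma 3.58.1 (voom), other scaling, filters, a fold of 1.5, a replicate block, background subtraction and each library left out. A count of 0 allows up to 3 counts. On simulated data for this comparison, 143 of 190 genes changed 4-fold (75.3%) among 17301 tested were recovered, none in the wrong direction, with 14 false of 157 calls.

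Members and gene lists were chosen with earlier results of these data known. The named genes were all 10 members. Of each pathway list they were up to 4 called genes a direction and the 2 most abundant tested, and of each cell marker list up to 2 a direction and the 2 most abundant. To these were added the 6 most alike genes of each profile. Of the 12 hair shaft markers, 11 matched the files' symbols. The values of 1 gene of the list of transcription factors and nuclear receptors are not reported here.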

Additional observations from a re-analysis of the deposited data

Results flagged for a closer look

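The libraries labelled Tfap2b knockout at 3 weeks lie outside the comparison at 6 months, and some members stood in them above the highest control of 6 months. In replicate 1, Pparg stood at 80.9 CPM (highest control 2.56), Fasn at 5818 CPM (415), Scd1 at 8197 CPM (848) and Dgat2 at 509 CPM (292). In replicate 2, Soat1 stood at 45.8 CPM (37.5), Dgat2 at 310.5 CPM (292) and Awat2, on 25 counts, at 2 CPM (1.86). Replicate 2, which shares the labelled age and genotype, stood at 0.799, 395 and 524 CPM in Pparg, Fasn and Scd1, below the highest control. Age and genotype both differ from those controls, so their parts cannot be told apart. What sets the 2 replicates apart was not tested.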

How the results depend on the processing

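Of 135 alternative values of the 8 members tested, 117 kept direction and side of the threshold, 17 lost the call and 1 changed sign, that of Elovl3 (0.72 against control 3 alone, a choice made after seeing the data). Members called fell from 4 to 2 with the replicate block, with all 8 libraries in one fit, in the test against a fold of 1.5 and against control 3 alone, and ran from 2 to 4 with 1 library left out. Genes called over the whole table were 2637, and 4809 without the filter, 1729 with the replicate block, 1546 with all 8 libraries, 585 against a fold of 1.5, 437 against control 3 alone and 668 to 7542 with 1 library left out (668 without replicate 1 labelled double knockout, 7542 without control 3). With total counts, 52.2% of calls were higher beside 42.1%. Without the filter the median of all genes moved from -0.04 to -0.56. Of the other pathway and marker genes 28 were called, and 16 with all 8 libraries, 9 against a fold of 1.5, 5 against control 3 alone and 10 to 39 with 1 library left out. Same-numbered libraries did not deviate together (r = 0.01, -0.17 and -0.07), and pairs of unlike number gave r from -0.1 to 0.17. With 3 libraries in each group, these values cannot settle whether the numbers pair them. The replicate block took the calls of Scd3 (-2.54, edgeR adjusted p = 0.0654) and Dgat2 (-0.69, edgeR adjusted p = 0.0532), and left 26 of the other genes called. Signs changed for Acsbg1 (-0.01 to 0.28 with 1 library left out, -0.01 without control 2, -0.09 against control 3 alone), Nfatc1 (-0.54 to 0.03 with 1 library left out, 0.03 without replicate 2 labelled double knockout), Krt10 (-0.03 with background subtracted, -0.11 to 0.21 with 1 library left out, -0.01 without control 2, -0.11 without replicate 2 labelled double knockout and against control 3 alone) and Ptprc (-0.01 with at least 10 counts in every library, -0.26 to 0.35 with 1 library left out, -0.26 without control 1, -0.18 without replicate 1 labelled double knockout, -0.37 against control 3 alone). Of 747 alternative values of 44 other named genes, 105 lost a call and 17 gained one: 8 of Krt15 (-1.9 to -1.28), 4 of Elovl4 (-0.52 to -0.44), 3 of Krt79 (0.74 to 0.97) and 2 of Tfap2a (0.57 and 0.72). The causes were not tested. Depth limits Pparg, Elovl3, Awat1 and Awat2, at 1 to 52 counts per library at 6 months.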

Other observations

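Around Awat1 and Awat2 on the X chromosome, 10 other protein-coding genes lie within 200 kb. Of these 8 were tested, 0 passed with edgeR, DESeq2 or limma-voom, and 0 had an unadjusted edgeR p under 0.05. Their log2 fold changes ran from -0.66 to 0.31. Dgat2l6, a gene of the wax and glyceride list that lies between Awat2 and Awat1, was too sparse to be tested. It held 12, 24 and 4 counts in controls 1 to 3, against 0, 0 and 1 in the knockout-labelled libraries. Controls 1 and 2 carry the higher receptor-gene background given above.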
